A study of Mus musculus with 7 samples.

Results

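The mRNAs of 10 genes that mark inhibitory interneurons of the cerebral cortex were followed between the embryonic and the adult mouse brain. They were 7 neuropeptide genes (Sst, Cort, Npy, Vip, Cck, Tac1 and Crh) and 3 genes of calcium-binding proteins of the EF-hand family (Pvalb, Calb1 and Calb2). They were taken by symbol, as the rows of the deposited gene table with exactly these names, and all 10 were found among 36666 genes. The study sequenced mRNA from whole cerebral cortex of C57BL/6 mice, in 3 samples from young adults and 4 samples taken at embryonic day 17 (E17). No treatment or genetic change is given for either age. The labels do not say whether each sample came from 1 animal or from pooled animals, so p-values measure only the spread between these samples. In bulk tissue, fewer cells of a type and less RNA per cell cannot be told apart.

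Cortical interneurons release GABA and fall into classes that are recognised by the peptide or the calcium-binding protein they contain. The parvalbumin and somatostatin classes are born in the medial ganglionic eminence of the embryonic brain, and the Vip class in the caudal one. All of them migrate into the cortex. Neuropeptides are made as precursors, cut by convertases, stored in dense-core granules and act on G-protein-coupled receptors, while parvalbumin and the calbindins buffer calcium inside the cell. Several of these genes are not exclusive to interneurons: Cck and Calb1 are also transcribed in excitatory cortical neurons, and Calb2 in Cajal-Retzius cells, an early neuron type of the cortical surface.

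The start of a peptide gene often carries a cyclic AMP response element, the binding site of CREB-family factors, whose palindrome TGACGTCA was first described in the rat Sst gene. The 110 bases just before the RefSeq start are shown for the 5 peptide genes whose 250 upstream bases held the core of this element (TGACG, or CGTCA on the other strand), with matches in capitals, so that the places of the matches can be compared. They are from RefSeq on GRCm38.p6, 5′ to 3′ on the strand of the gene: Sst on the minus strand at chr16:23890845-23890954, Cort on the minus strand at chr4:149126764-149126873, Vip on the plus strand at chr10:5639108-5639217, Cck on the minus strand at chr9:121495695-121495804 and Tac1 on the plus strand at chr6:7554951-7555060.
Sst: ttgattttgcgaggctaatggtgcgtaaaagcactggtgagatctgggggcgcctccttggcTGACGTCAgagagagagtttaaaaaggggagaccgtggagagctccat
Cort: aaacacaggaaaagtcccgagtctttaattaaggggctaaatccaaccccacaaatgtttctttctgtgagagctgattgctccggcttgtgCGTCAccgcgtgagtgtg
Vip: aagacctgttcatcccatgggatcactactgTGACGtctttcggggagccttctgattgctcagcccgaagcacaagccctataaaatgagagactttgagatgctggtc
Cck: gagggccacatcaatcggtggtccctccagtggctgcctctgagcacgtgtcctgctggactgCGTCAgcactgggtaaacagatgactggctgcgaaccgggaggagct
Tac1: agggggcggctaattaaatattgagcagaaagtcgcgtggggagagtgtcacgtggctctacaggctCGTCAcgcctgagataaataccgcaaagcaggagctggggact
Of the 10 genes, 7 had an entry in the promoter table used. Sst alone among these 7 held the full palindrome, beginning at position -48 relative to the start, against 1.77% of 27025 genes in the table. The core TGACG was found on either strand in 5 of the 7, against 19.8% of genes. Its matches began at position -18 in Cort, -79 in Vip, -47 in Cck, and -43 and -197 in Tac1, where the last lies outside the bases shown. Each full palindrome also counts as a core match. No match lay in this window of Npy or Pvalb. Positions are relative to the RefSeq start. By the GENCODE gene positions given below, Sst and Tac1 begin further upstream, so that their shown bases lie inside the gene. A match says only that these letters are present.

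The 3 adult samples held 22734120 to 23606450 reads in genes and the 4 embryonic samples 18444189 to 22575834. Levels are given as reads per 1000000 reads in genes (CPM), from read counts recovered from the deposited values. Differences are adult minus embryonic means on the deposited variance-stabilized scale, where 1 is close to a doubling for well expressed genes, with their standard error (SE) and limma's adjusted p over the 24004 genes tested. All 10 genes were tested and all 10 were higher in adult than in embryonic cortex at an adjusted p under 0.05, a call that 35.5% of all genes tested received, while 32.4% were lower. These shares also stand beside the counts of list and marker genes below. In 9 of the 10, every adult sample lay above every embryonic sample, as in 32.8% of all genes. Npy was the exception. The 10 differences ran from 0.46 to 8.08, against a median of 0.03 over all genes tested. Centring each sample on its median moved the middle of all differences by -0.23 and turned the balance of calls over all genes, with 7023 higher and 9574 lower. Npy was then 0.22 higher and not called, while the other 9 were still called higher, with differences of at least 1.14. The label of cerebral cortex was checked on 9 markers of its excitatory neurons, which summed to 4990 to 5612 CPM in adult and 2043 to 2176 CPM in embryonic samples. Slc17a7, the vesicular glutamate transporter of excitatory cortical neurons, averaged 1312 CPM in adult and 52.2 CPM in embryonic cortex. Markers of some neighbouring tissues were also higher in adult samples. All 8 choroid plexus genes were called higher, with sums of 596 to 735 CPM in adult against 2.77 to 4.92 CPM in embryonic samples, and their part in the results on the 10 genes was not tested.

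**Figure D1:**
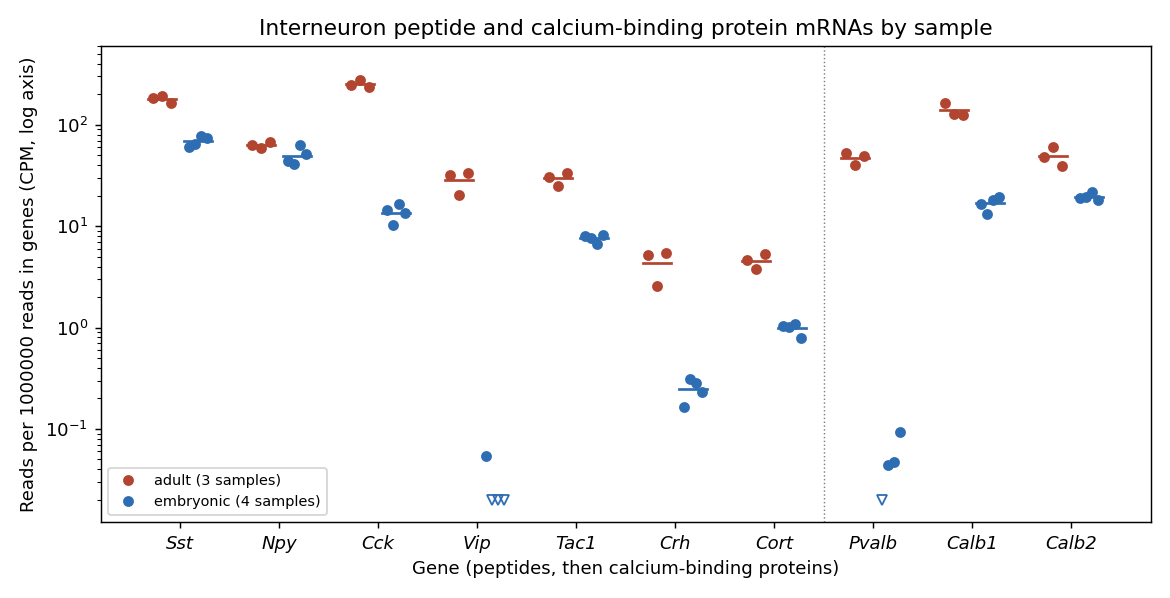
Reads per 1000000 reads in genes (CPM, log axis) of the 10 genes in each of 3 adult (red, left of each pair) and 4 embryonic (blue, right) cortex samples. Horizontal lines are group means, left out for Vip and Pvalb of embryonic cortex, where some samples had no reads. Open triangles stand for samples without reads, drawn at the bottom of the axis. Only the Npy points of both ages share a range, and Vip and Pvalb of embryonic cortex lie at or below 0.0924 CPM.

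Somatostatin inhibits neurons and endocrine cells and marks the interneurons that contact distal dendrites. Sst (minus strand, GRCm38 chr16:23889573-23890958) had 185, 191 and 163 CPM in adult replicates 1 to 3 and 61.0, 64.8, 78.0 and 74.2 CPM in embryonic replicates 1 to 4. The groups did not overlap. The means were 180 ± 15 CPM in adult and 69.5 ± 7.90 CPM in embryonic cortex (SD, n = 3 and n = 4), a difference of 1.45 (SE 0.10, limma adjusted p = 1.70e-07). Cortistatin is a peptide related to somatostatin that binds the same receptors. Cort (minus strand, chr4:149125034-149126763) had 107, 89 and 120 reads in adult samples and 19, 23, 23 and 17 reads in embryonic samples, or 4.57 ± 0.759 CPM in adult and 0.979 ± 0.132 CPM in embryonic cortex. Its difference was 1.93 (SE 0.17, adjusted p = 1.42e-06 in limma), and the groups did not overlap.

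The receptors of both peptides did not follow a single pattern. Sstr4 had 21.3, 22.2 and 21.9 CPM in adult samples against 1.46, 1.46, 1.51 and 1.94 CPM in embryonic samples, a difference of 3.49 (limma adjusted p under the threshold of 0.05, as for all receptors described as higher or lower). Sstr3, a receptor of primary cilia, averaged 37.3 ± 7.10 CPM in adult and 5.40 ± 1.08 CPM in embryonic cortex. Sstr1 averaged 25.9 ± 3.25 CPM in adult and 18.1 ± 2.76 CPM in embryonic cortex, and Sstr5 0.649 ± 0.0678 CPM in adult and 0.235 ± 0.0722 CPM in embryonic cortex. Sstr2 ran the other way. It had 13.7, 26.2 and 18.4 CPM in adult samples and 41.6, 48.9, 36.0 and 38.6 CPM in embryonic samples, so that the adult samples were lower without overlap while its ligand genes were higher (difference -1.01, SE 0.18).

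Neuropeptide Y, an abundant peptide of somatostatin and neurogliaform interneurons, showed the smallest difference of the 10. Npy (plus strand, chr6:49822710-49829507) had 63.8, 59.5 and 68.0 CPM in adult samples and 43.8, 40.8, 63.0 and 51.3 CPM in embryonic samples. Embryonic replicate 3 lay inside the adult range, and the other embryonic samples below it. The means were 63.8 ± 4.26 CPM in adult and 49.7 ± 9.92 CPM in embryonic cortex, a difference of 0.46 (SE 0.13, adjusted p = 0.00952 in limma). The call was lost without adult replicate 3 (difference 0.41, adjusted p = 0.0673), without the filter on low values (adjusted p = 0.0731) and with centring on sample medians (adjusted p = 0.155), all in limma. Among its receptors, Npy2r, an autoreceptor on Npy terminals, averaged 11.02 ± 0.144 CPM in adult and 3.37 ± 0.480 CPM in embryonic cortex, and Npy5r 3.94 ± 1.25 CPM in adult and 0.505 ± 0.177 CPM in embryonic cortex. Npy1r, the main postsynaptic receptor, averaged 24.3 ± 5.13 CPM in adult and 16.04 ± 3.98 CPM in embryonic cortex, with overlapping groups and an adjusted p of 0.00993 in limma that became 0.0614 with centring, 0.0872 without the filter, 0.0776 without adult replicate 1 and 0.0731 without adult replicate 3. Ppyr1, the gene now named Npy4r, had no reads in adult samples and 1, 2, 3 and 7 reads in embryonic samples, and was called lower.

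Vasoactive intestinal peptide marks interneurons that mainly inhibit other interneurons. Vip (plus strand, chr10:5639218-5647617) had 739, 479 and 758 reads in adult samples and 1, 0, 0 and 0 reads in embryonic samples. At a depth of about the same number of reads at both ages, its mRNA was thus near the limit of detection at E17, where a count of 0 allows up to 3 reads in a sample. The adult mean was 28.6 ± 7.24 CPM. Pooled over samples, the ratio of adult to embryonic CPM was 2394, with a 95% exact counting interval of 429.7 to 94565 that reflects the single embryonic read. The deposited scale understates ratios of such low counts, and there the difference was 8.08 (SE 0.39, adjusted p = 1.16e-08 in limma), the 10th largest of the 24004 genes tested. Of the genes tested, 323 had no reads in any embryonic sample. Its receptor Vipr1 averaged 26.8 ± 3.42 CPM in adult and 2.33 ± 0.282 CPM in embryonic cortex, Vipr2 2.68 ± 0.627 CPM in adult and 1.44 ± 0.121 CPM in embryonic cortex, and Adcyap1r1, the PACAP receptor of the same family, 195 ± 18.7 CPM in adult and 144 ± 5.27 CPM in embryonic cortex. All 3 were higher in adult cortex. Reads of each receptor were also present at E17, when Vip itself was not detectable beyond 1 read.

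Cholecystokinin is one of the most abundant peptides of the cortex, made by basket interneurons and by excitatory neurons. Cck (minus strand, chr9:121489824-121495694) had 248, 279 and 234 CPM in adult samples and 14.3, 10.3, 16.5 and 13.5 CPM in embryonic samples. The groups lay far apart relative to their spread. The means were 253 ± 23.0 CPM in adult and 13.6 ± 2.57 CPM in embryonic cortex, a difference of 4.24 (SE 0.14, adjusted p = 5.92e-10 in limma). Cckbr, the main brain receptor of the peptide, had 35.6, 54.6 and 43.1 CPM in adult samples and 1.36, 1.24, 1.41 and 1.62 CPM in embryonic samples, a difference of 4.62 (SE 0.15). Cckar, the receptor best known from the gut, averaged 0.718 ± 0.303 CPM in adult and 0.105 ± 0.0926 CPM in embryonic cortex. It was called higher in adult cortex, but not without adult replicate 2 (adjusted p = 0.0569 in limma) or without the filter (adjusted p = 0.0560).

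Tac1 encodes substance P and neurokinin A. Tac1 (plus strand, chr6:7554879-7565834) had 30.9, 25.04 and 33.5 CPM in adult samples and 7.92, 7.66, 6.63 and 8.23 CPM in embryonic samples. The groups did not overlap, and the embryonic samples were close together. The means were 29.8 ± 4.32 CPM in adult and 7.61 ± 0.690 CPM in embryonic cortex, a difference of 1.95 (SE 0.11, adjusted p = 5.25e-08 in limma). Striatal projection neurons also transcribe Tac1. All 9 other striatal markers were called higher in adult samples, with sums of 1142 to 1349 CPM in adult against 238 to 270 CPM in embryonic samples, and their part in the Tac1 difference was not tested. Tacr1, the substance P receptor, averaged 7.05 ± 1.19 CPM in adult and 3.71 ± 0.399 CPM in embryonic cortex, and Tacr3 3.42 ± 1.13 CPM in adult and 1.30 ± 0.139 CPM in embryonic cortex. Tacr2 had 6, 10 and 3 reads in adult samples and no reads in embryonic samples. All 3 were called higher in adult cortex.

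Corticotropin-releasing hormone drives the stress axis from the hypothalamus and is also made by some cortical interneurons. Crh (minus strand, chr3:19693401-19695396) had 118, 60 and 123 reads in adult samples and 3, 7, 6 and 5 reads in embryonic samples. That is 4.37 ± 1.59 CPM in adult and 0.247 ± 0.0648 CPM in embryonic cortex, a difference of 3.21 (SE 0.26, adjusted p = 9.08e-07 in limma) with no overlap. Adult replicate 2 held about as many reads of all genes as the others but the fewest of Crh. Of 8 hypothalamic markers other than Crh, 4 were higher and 2 lower in adult samples, with sums of 14.5, 48.0 and 5.37 CPM in adult replicates 1 to 3 against 2.87 to 3.46 CPM in embryonic samples. The hypothalamic sum was thus highest in the adult sample with the least Crh and Vip, and lowest in the adult sample with the most of both. Only 2 of the 8 markers were called higher with voom or without the filter, and the part of hypothalamic tissue in the Crh and Vip results was not tested. Crhbp, a secreted protein that binds the hormone, averaged 14.1 ± 1.32 CPM in adult and 0.593 ± 0.406 CPM in embryonic cortex (difference 4.22). Its receptors Crhr1 (16.97 ± 3.06 CPM in adult and 7.91 ± 0.752 CPM in embryonic cortex) and Crhr2 (2.70 ± 0.146 CPM in adult and 0.694 ± 0.192 CPM in embryonic cortex) were also higher.

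**Figure D2:**
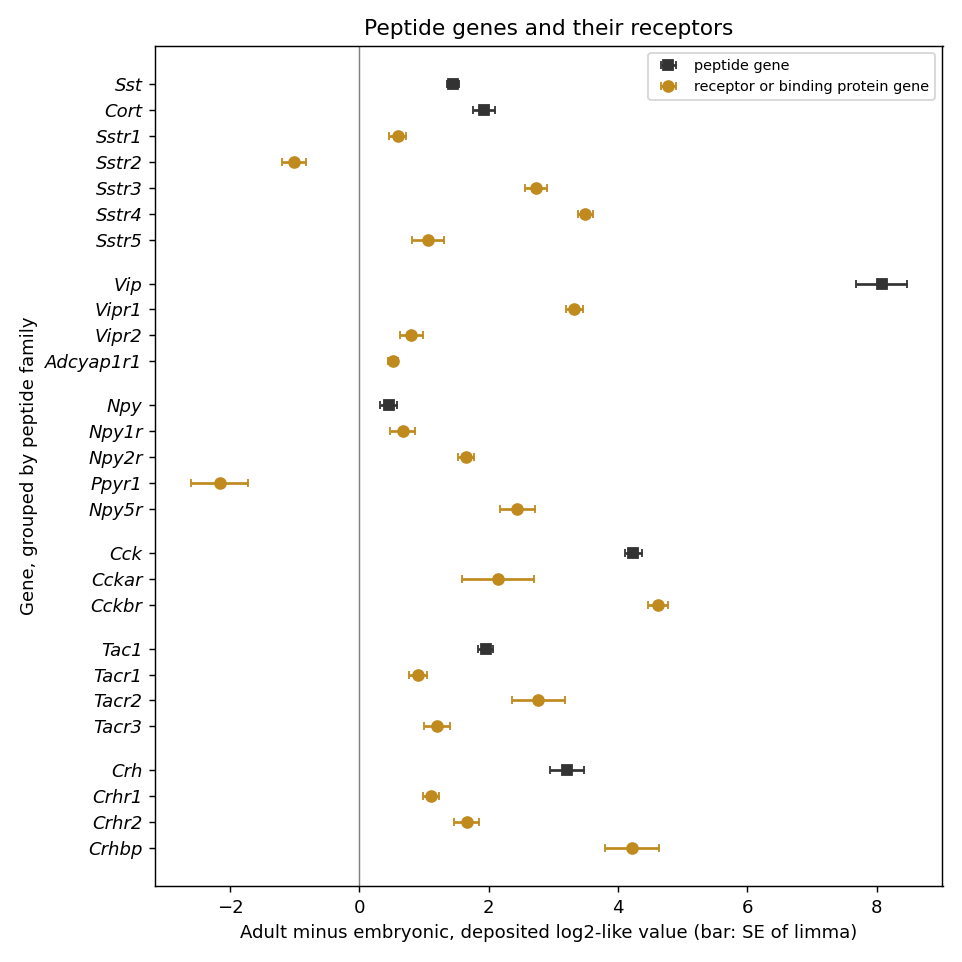
Adult minus embryonic difference on the deposited log2-like scale, with bars for the limma SE, of the 7 peptide genes (dark squares) and of 20 genes of their receptors and a binding protein (gold circles), grouped by peptide family. Sstr2 at -1.01 and Ppyr1 lie left of 0, and the other 18 of the 20 lie right of it.

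Counted together, 18 of the 20 receptor and binding protein genes were called higher in adult cortex and 2 lower, with a median difference of 1.42. Over all genes tested, 35.5% were called higher and 32.4% lower. With centring on sample medians 17 of the 20 were higher, and without the filter 16.

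Among the calcium-binding proteins, parvalbumin, the buffer of fast-spiking interneurons, came closest to absence at E17. Pvalb (minus strand, chr15:78191114-78206400) had 1199, 948 and 1122 reads in adult samples and 0, 1, 1 and 2 reads in embryonic samples. The adult mean was 47.3 ± 6.34 CPM, and the pooled ratio to embryonic CPM was 990.2 with a 95% exact counting interval of 387 to 3634. The difference on the deposited scale was 7.99 (SE 0.38, adjusted p = 9.82e-09 in limma), rank 13 of the genes tested. Calb1 encodes calbindin, found in interneurons and in upper-layer excitatory neurons. Calb1 (plus strand, chr4:15881264-15908064) had 165, 129 and 124 CPM in adult samples and 16.6, 13.2, 18.1 and 19.2 CPM in embryonic samples. Its means of 139 ± 22.2 CPM in adult and 16.8 ± 2.62 CPM in embryonic cortex differed by 3.08 (SE 0.13, adjusted p = 4.84e-09 in limma). Purkinje cells of the cerebellum are rich in Calb1, and 5 other cerebellar markers (3 called higher and 1 lower) summed to 8.68 to 12.96 CPM in adult and 10.9 to 12.6 CPM in embryonic samples, with overlapping ranges. Thalamic markers, 6 of 7 of them higher in adult samples, summed to 299, 244 and 172 CPM in adult replicates 1 to 3 against 107 to 119 CPM in embryonic samples, so that Calb1 and this sum were both highest in adult replicate 1. The part of thalamic tissue was not tested.

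Calb2 encodes calretinin, found in part of the Vip class and in Cajal-Retzius cells. Calb2 (minus strand, chr8:110137502-110168210) had 48.7, 60.7 and 39.3 CPM in adult samples and 19.0, 19.3, 21.6 and 18.2 CPM in embryonic samples. The adult samples varied more, but all lay above the embryonic ones. The means were 49.6 ± 10.8 CPM in adult and 19.5 ± 1.45 CPM in embryonic cortex, a difference of 1.37 (SE 0.13, adjusted p = 3.39e-06 in limma). The other 6 Cajal-Retzius markers were all called lower in adult cortex, with sums of 98.0 to 119 CPM in adult against 375 to 481 CPM in embryonic samples. Without the filter, and with a replicate block, 5 of the 6 were called lower. Reln made up most of both sums, with 92.8 to 113 CPM in adult and 320 to 427 CPM in embryonic samples. It is also listed below as a companion of the caudal interneuron classes.

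The make-up of the 10 genes' reads differed by age. Together they held 835, 811 and 755 CPM in adult samples and 164, 157, 205 and 186 CPM in embryonic samples. Sst made up 22.4% ± 1.05 of these reads in adult and 39.1% ± 1.80 in embryonic cortex, and Npy 7.99% ± 0.896 in adult and 27.7% ± 2.10 in embryonic cortex. Cck made up 31.7% ± 2.41 in adult and 7.64% ± 0.949 in embryonic cortex, and Calb1 17.4% ± 2.07 in adult and 9.43% ± 0.967 in embryonic cortex. In each of these 4 genes the shares of the 2 ages did not overlap. The shares of Tac1 (3.74% ± 0.676 in adult and 4.34% ± 0.765 in embryonic cortex) and Cort (0.574% ± 0.118 in adult and 0.557% ± 0.104 in embryonic cortex) overlapped between the ages.

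**Figure D3:**
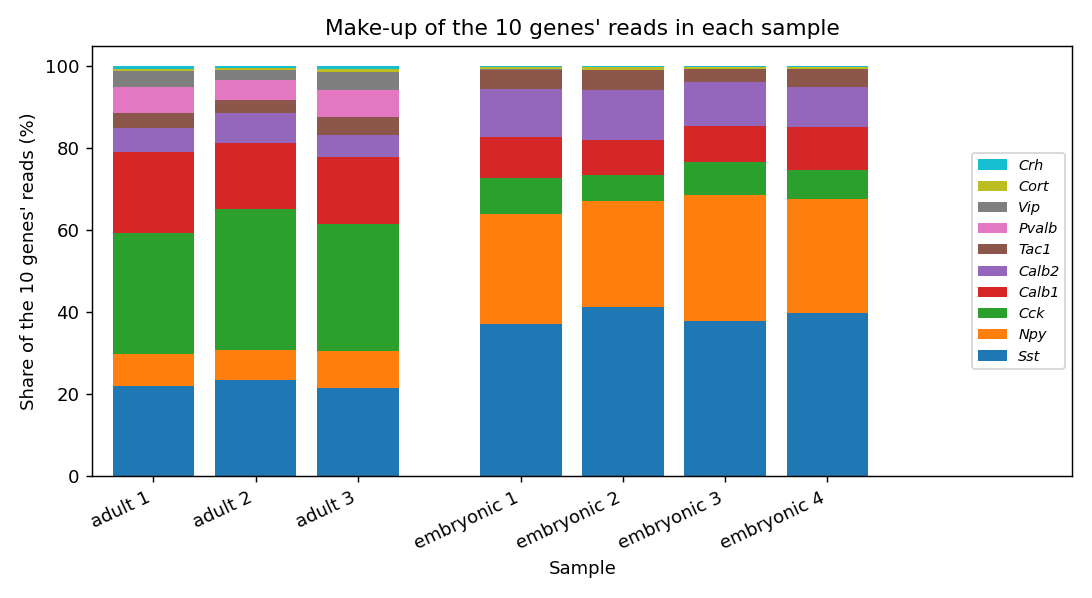
Share of each gene in the summed reads of the 10 genes (%) in 3 adult samples (left) and 4 embryonic samples (right), stacked to 100. Sst and Npy fill most of each embryonic bar, and Cck and Calb1 take the larger part of what is added in the adult bars.

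Levels per transcript length allow the genes to be ordered within an age. In CPM per kilobase of the longest coding transcript, the adult order was Cck (317), Sst (249), Npy (113), Pvalb (48.4), Calb2 (34.6), Calb1 (33.0), Tac1 (24.2), Vip (18.7), Cort (6.75) and Crh (3.31). Among neighbours in this order, Pvalb and Calb2, Calb2 and Calb1, and Tac1 and Vip had overlapping sample ranges, and the others did not. In embryonic cortex the order was Sst (96.4), Npy (87.8), Cck (17.1), Calb2 (13.6), Tac1 (6.19), Calb1 (3.98), Cort (1.45), Crh (0.187), Pvalb (0.0470) and Vip (0.00886). There the ranges of Sst and Npy, of Cck and Calb2, and of Pvalb and Vip overlapped. Cck thus held rank 1 in the adult and rank 3 in the embryonic order, and Pvalb rank 4 and rank 9.

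The enzyme that makes GABA gave another scale. Gad1 averaged 279 CPM in adult and 67.5 CPM in embryonic cortex, a difference of 2.12, larger than those of Sst, Cort, Npy, Tac1 and Calb2. The 9 striatal markers other than Tac1 were also all higher in adult samples. Their part in the Gad1 level was not tested, so values on this scale are not values per interneuron. Per 100 Gad1 reads of the same sample, Sst had 65.2 ± 11.7 reads in adult and 105 ± 21.4 reads in embryonic cortex, Npy 22.9 ± 0.824 in adult and 75.6 ± 23.6 in embryonic cortex, and Calb2 18.1 ± 5.69 in adult and 29.5 ± 5.77 in embryonic cortex. These 3 were therefore lower in adult samples on this scale, without overlap. Tac1, with 10.7 ± 0.679 reads in adult and 11.3 ± 1.06 in embryonic cortex, and Cort, with 1.63 ± 0.121 in adult and 1.48 ± 0.345 in embryonic cortex, overlapped between the ages (exact permutation p = 0.286 and 0.514, two-sided). Cck had 92.0 ± 17.5 reads per 100 Gad1 reads in adult and 20.8 ± 6.38 in embryonic cortex, and Calb1 50.4 ± 9.96 in adult and 25.4 ± 5.90 in embryonic cortex. Pvalb had 16.96 ± 1.80 in adult and 0.0667 ± 0.0531 in embryonic cortex, Vip 10.2 ± 1.92 in adult and 0.0216 ± 0.0431 in embryonic cortex, and Crh 1.54 ± 0.469 in adult and 0.367 ± 0.10 in embryonic cortex. In the 8 genes other than Tac1 and Cort the groups did not overlap, which gives an exact permutation p of 0.0571, the smallest that 3 against 4 samples allow, so none of the 10 comparisons on this scale could pass 0.05.

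**Figure D4:**
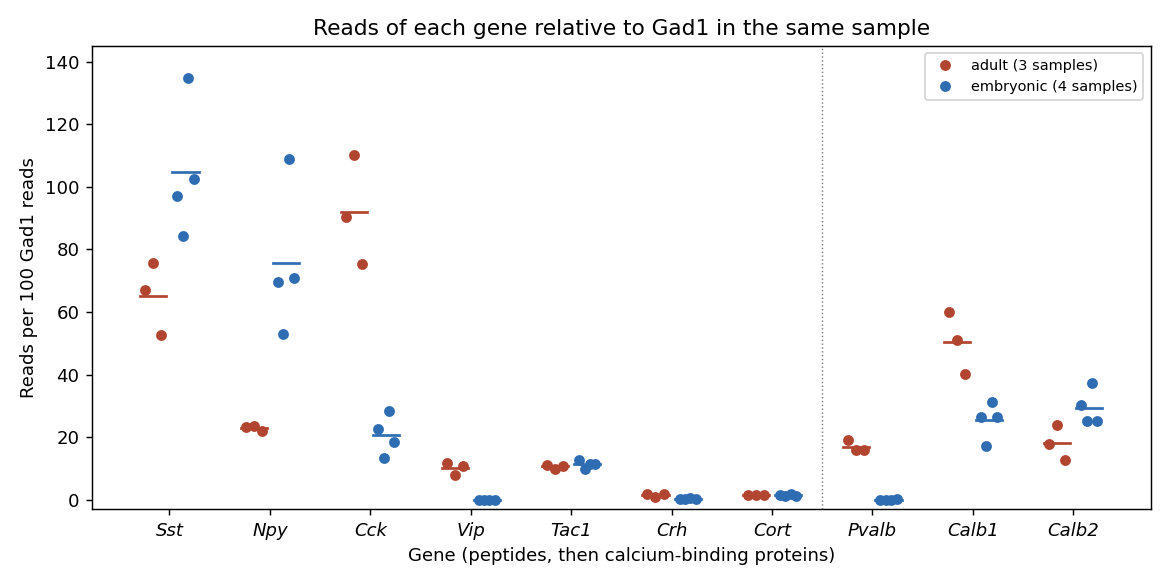
Reads of each gene per 100 Gad1 reads of the same sample, in 3 adult (red, left of each pair) and 4 embryonic (blue, right) samples, with lines at group means. Sst, Npy and Calb2 lie lower in adult samples, Tac1 and Cort at about the same level, and the other 5 higher.

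The other lists of the pathway are given by the same fit, beside 35.5% higher and 32.4% lower over all genes tested. All 12 genes of peptide processing and granules were called higher in adult cortex, with a median difference of 2.85. Vgf, a granule protein, averaged 348 CPM in adult and 13 CPM in embryonic cortex, and the convertase Pcsk2 383 CPM in adult and 30.8 CPM in embryonic cortex. Of 12 other neuropeptide genes of the cortex, 9 were higher, 1 lower and 2 not called. Cartpt (difference 5.14) and Penk (5.01), which encode CART and enkephalins, led those that were higher. Penk is also 1 of the striatal projection neuron markers, which were all higher in adult samples, and their part in its difference was not tested. Nts, which encodes neurotensin, was lower at 6.16 CPM in adult and 15.97 CPM in embryonic cortex, a call lost without the filter (adjusted p = 0.0518 in limma). Of 17 other EF-hand genes, 16 were higher, led by Hpcal4 (difference 4.79) and Vsnl1 (4.31), neuronal calcium sensors, and 1 was not called. All 4 genes of the GABA phenotype were higher, among them the vesicular transporter Slc32a1 with 129 CPM in adult and 36.6 CPM in embryonic cortex.

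The transcription factors that specify interneurons went the opposite way to the 10 genes. Of 15 such factors, 12 were lower in adult cortex, 1 was higher and 2 were not called, with a median difference of -1.26. Over all genes tested, 32.4% were lower and 35.5% higher. Dlx2 averaged 4.32 CPM in adult and 32.3 CPM in embryonic cortex, and Dlx1 30.1 CPM in adult and 157 CPM in embryonic cortex. Lhx6, the factor of the parvalbumin and somatostatin lineages, averaged 17.5 CPM in adult and 79.5 CPM in embryonic cortex. Prox1, a factor of the caudal lineage, was the one that was higher (difference 0.88).

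Genes that accompany each class were counted in the same way, beside 35.5% higher and 32.4% lower over all genes tested. Of 9 companions of Pvalb, 8 were higher in adult cortex and 1 was not called, with a median difference of 2.76. Cox6a2, a respiratory chain subunit, had a difference of 5.06, and Syt2, a synaptotagmin of fast-spiking terminals, 4.405. Of 8 companions of Sst, 3 were higher, 3 lower and 2 not called, which is near the shares over all genes. Pdyn, which encodes dynorphins, was 3.45 higher and Tacr1 0.91 higher, while Lhx6 and Chodl were lower, with differences of -2.05 and -1.71. Of 10 companions of Vip and the other caudal classes, 5 were higher and 5 lower, and 3 were lower without the filter. The Lamp5 gene, listed as 6330527O06Rik, averaged 141 CPM in adult and 0.773 CPM in embryonic cortex (difference 6.96), and the chemokine Cxcl14 97.9 CPM in adult and 10.7 CPM in embryonic cortex. Reln, the reelin gene, had a difference of -1.73 and the cannabinoid receptor gene Cnr1 one of -0.81.

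Genes of the most similar pattern over the 7 samples were found by the root mean square difference of centred deposited values. For Cck these were Prkcc (0.11), Gm1337 (0.13) and Nrip3 (0.15). For Calb1 they were Arap2 (0.06), Plekhf1 (0.08) and Purb (0.10), and for Sst Pcbd2 (0.06), Kcna6 (0.07) and Gde1 (0.08). For Pvalb the nearest were Fam107a (0.50), Mal (0.62) and Fa2h (0.66). The 4 embryonic values of Pvalb rest on 4 reads in all.

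The exon table held 39 exons of 6 of the genes (Sst, Npy, Cck, Calb1, Calb2 and Tac1), each given as its share of the gene's reads. Most shares did not differ detectably: 3 exons were called in limma's diffSplice at an adjusted p under 0.05, against 4.86% of 86190 exons tested. The first exon of Npy (mm9, chromosome 6, start 49772728) held 3.33%, 2.13% and 1.92% of the gene's reads in adult samples and 0.870%, 1.72%, 1.19% and 1.45% in embryonic samples, on about 30 to 49 reads in adult and 7 to 16 reads in embryonic samples. It was higher in adult samples without overlap (adjusted p = 0.00165), and with a replicate block the adjusted p was 0.0732. The first exon of Calb1 (mm9, chromosome 4, start 15808411) held 9.09%, 11.1% and 7.14% in adult samples and 6.67%, 5.88%, 5.56% and 4.76% in embryonic samples (adjusted p = 0.00251). Without adult replicate 2 its adjusted p was 0.149. Of the first exons of genes with at least 3 exons, 12.1% of 6326 gained share in adult samples, against 1.85% of 72449 other exons of these genes, so a larger share in a first exon was common among all genes. Exon 3 of Cck, counted along the gene, (mm9, chromosome 9, start 121402487) was called in the other direction, with 0.282%, 0.0608% and 0.0753% in adult samples and 0.379%, 0.431%, 0.286% and 0.342% in embryonic samples (adjusted p = 0.0345). It rested on 1 read in each embryonic sample, and the call was lost in 5 of 7 fits that left out 1 sample each. The first exon of Tac1 (mm9, chromosome 6, start 7505071) held 8.84% ± 0.437 in adult and 6.28% ± 0.524 in embryonic samples without overlap, and was not called (adjusted p = 0.868). Exons 4 and 6 of Tac1, which are skipped in alternative transcripts known from the rat, were not called either.

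Variation within an age was not shared by all 10 genes. Adult replicate 2 was the lowest adult sample for Pvalb, Vip, Npy, Tac1, Crh and Cort and the highest for Sst, Cck and Calb2. Adult replicate 3 was the lowest for the other 4 genes and the highest for 5. Among embryonic samples, replicate 3 was the highest for 5 of the genes.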

How the data were processed

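mRNA was sequenced from cerebral cortex of 3 young adult and 4 embryonic samples. The submitters' processing notes list TopHat 1.0.13 with Bowtie 0.12.7.0, SAMtools 0.1.7a, HTSeq 0.5.3p3, CASAVA 1.7.1 and the mm9 build, without saying what each was used for. The deposited gene values are variance-stabilized by the authors on a log2-like scale, with 1 lowest value for genes without reads, by a tool that the sources used here do not name. The exon table holds a score, defined per the file headers as the inverse of a ratio and also deposited after variance stabilization. It steps through whole numbers that behave as gene reads over exon reads, so shares are 100 divided by that number (0 taken as 1), coarse where it is small, and reads over junctions can count in more than 1 exon.

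Each gene column is a smooth function of whole numbers, so reads were recovered. Above the lowest steps of each column, which were assigned, 99.6% to 99.8% of values fell within 0.1 of a whole number. The sources used here do not say if counting used strand. In GENCODE M21, no other gene overlapped the 10 genes. Intervals and floors (3 reads) cover counting error only.

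The 2 ages were compared with limma 3.58.1 (R 4.3.3, lmFit, eBayes with trend, two-sided, Benjamini-Hochberg, threshold 0.05) on the deposited values of all 7 samples without covariates. Genes above the lowest value of their column in at least 3 samples were kept. Exons were tested with diffSplice. Scripts were tested on simulated data. Alternatives were another filter and none, no trend, centring, voom and log2 CPM with a pseudocount of 0.5 or 0.05 on recovered reads, a replicate block, and each sample left out. Samples of 1 group differed by more than counting noise. Names, lengths and gene positions are from GENCODE M21 (GRCm38). Exon starts are as deposited (mm9).

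The 10 genes and all lists were chosen with earlier results of these data known. All receptors are named, and from each other list the 2 called genes of largest difference in each direction whose groups do not overlap. Some genes stand in more than 1 list: Tacr1, Lhx6, Pdyn, Reln and Penk, and also Tac1, Calb1 and Calb2, which were left out of the marker sums. Of the markers, 1 of hypothalamus (Kiss1) was not found in the table by symbol. For each gene, the 3 most similar genes were found, and those of 4 genes are given.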

Additional observations from a re-analysis of the deposited data

Results flagged for a closer look

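Among 61 sets of 4 embryonic values, 5 had 1 sample set apart from the other 3 by Dixon's criterion, where chance gives about 1 in 20 for continuous values. That rate does not apply to Vip, the first exon of Sst and the fourth exon of Cck, where the other 3 values were equal. Vip had 0.0542 CPM in embryonic replicate 1, from a single read, against none in the other 3. Sstr4 had 1.94 CPM in embryonic replicate 4, against 1.46 to 1.51 CPM in the others. The other 3 are exon shares, which move in coarse steps. The first exon of Sst held 33.3% of the gene's reads in embryonic replicate 1, against 25% in each of the others. The fourth exon of Cck held 100% in embryonic replicate 3, against 50% in the others. The fifth exon of Calb1 held 7.69% in embryonic replicate 1, against 5.56% to 5.88% in the others. No cause was tested.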

How the results depend on the processing

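Over all genes 8511 were higher and 7785 lower in adult cortex, and 8265 and 7490 with a replicate block. The balance turned to more lower than higher calls with centring (7023 higher and 9574 lower), voom (8141 and 8409) and pseudocounts of 0.5 (8093 and 8350) and 0.05 (8119 and 8421). Fits that left out 1 sample gave 8017 to 8345 higher. All 10 genes stayed higher under every alternative run except Npy, which was not called in 3, so that 9 were called there. With the replicate block all 10 were higher. The exons of the 10 genes that were called numbered 3, and 1 to 4 when a sample was left out, with 1 without adult replicate 2, where the first exon of Npy was left; the cause was not tested. Deviations of same-numbered samples from their group means correlated at 0.0709, 0.133 and 0.140 over 14850 genes. Adult replicates 2 and 3 correlated best with the embryonic replicate of the same number, and adult replicate 1 with embryonic replicate 4 (0.303). Whether samples of the same number share a batch was not tested. None of the 10 genes, the receptors and the other genes named by rule changed the sign of its difference under an alternative. Small differences of other list members could change sign, as for Grin3a, a companion of Sst (0.067 in the main fit and -0.017 with voom). Among the receptors and the other genes named by rule, calls on Npy1r, Cckar and Nts were lost under at least 1 alternative, and some further calls on list members not named were lost too. Depth limits Vip, Pvalb and Crh at E17, with 1, 4 and 21 reads over 4 samples.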
